A study of Mus musculus with 14 samples.

Results

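The 10 genes described here encode proteins that tag and enlarge the membrane of the autophagosome, the double-membraned vesicle that carries cell contents to the lysosome. They are Atg7, Atg3, Atg10, Atg12, Atg5 and Atg16l1 of the conjugation systems, and Wipi1, Wipi2, Atg2a and Atg9a of membrane expansion. They were selected by gene name, with no threshold on a measured value. Each gene was represented by its transcript line with the most reads over all libraries. All 10 were present among the 40800 gene symbols of the count table, and all 10 had enough reads to be tested with 17696 genes in all. The cells were mouse embryonic fibroblasts (MEFs), connective tissue cells grown from mouse embryos. RNA was sequenced in 14 libraries that formed 7 groups of 2: cells kept for 3, 6 or 12 h in medium without amino acids, cells kept for 3, 6 or 12 h in medium without glucose, and control cells at 0 h. All cells had first been plated in high-glucose medium with serum. Starved cells were then rinsed, given the deficient medium with dialyzed serum and later frozen in dialyzed serum. Control cells kept their medium and were frozen in serum that was not dialyzed. A difference from the control thus holds this handling as well as the starvation, and the effects of both cannot be told apart. No cells kept in full medium were sampled at 3, 6 or 12 h. Hours in culture thus cannot be told apart from starvation either, in differences from the control or in changes between 3 and 12 h. The labels name no strain, genotype or passage. Nothing in them shows that a group's libraries are from separate cultures, and a p-value then reflects the spread between these libraries alone, which may be technical.

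Autophagosomes grow from a small cup-shaped membrane. ATG9A, a membrane protein carried on vesicles, provides the first membrane, and ATG2A, a long lipid-transfer protein, moves lipids into it from the endoplasmic reticulum. WIPI proteins bind the phosphoinositide made by the VPS34 kinase at the growing membrane, and WIPI2 there recruits ATG16L1. A ubiquitin-like cascade then works at this site. ATG7, the activating enzyme, hands ATG12 to the conjugating enzyme ATG10, which joins it to ATG5, and the ATG12–ATG5 conjugate binds ATG16L1. This complex helps ATG7 and ATG3 to attach proteins of the ATG8 family, such as LC3, to the membrane lipid phosphatidylethanolamine. Amino acid and glucose shortage are classical triggers of autophagy in fibroblasts. RNA levels say nothing of the amount or activity of these proteins.

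The libraries held 35270758 to 55349652 reads over 1 transcript line per gene. Of 10 fibroblast markers, 8 exceeded 1 CPM (reads of a gene scaled by the size of its library) in control cells, among them the collagen genes and Vim, whereas Thy1 was at 0 and Dcn between 0 and 0.174 CPM there. The markers' summed level was 2238 to 2440 CPM after 12 h of amino acid starvation and 5402 to 5447 CPM after 12 h of glucose starvation, against 7468 to 8241 CPM in control cells. The markers did not move alike: Vim, an intermediate filament gene, averaged 99.3 CPM after 12 h of amino acid starvation, against 2246 CPM in control cells. Fn1, a matrix gene, averaged 1744 CPM after 12 h of amino acid starvation, against 1515 CPM in control cells, with no overlap. Of 5 endothelial markers only Kdr exceeded 1 CPM, and their summed level was 12.6 to 23.5 CPM in starved cells and 4.21 to 5.08 CPM in control cells. Of 5 macrophage markers Cd68 and Csf1r exceeded it, and they summed to 15.2 to 23.8 CPM in starved cells and 14.3 to 14.7 CPM in control cells, with Adgre1 at 0 in all groups. Of 5 neural markers Tubb3 and Map2 exceeded it in every group. Their list summed to 54.7 to 54.9 CPM in control cells. After 6 h it summed to 33.9 to 34.7 CPM without amino acids and 73.1 to 73.2 CPM without glucose. Of 5 skeletal muscle markers Myod1 and Des exceeded 1 CPM in control cells, where the list summed to 4.66 to 4.82 CPM. The part of these shifts in the changes of the autophagy genes was not tested. In RNA from whole cultures, fewer cells of a type and less RNA per cell cannot be told apart. CPM here and below follow TMM scaling, which sets libraries to a common level from genes of moderate change. Scaling by library totals instead moved the median log2 fold change of all genes by over 0.1 in 8 of 12 comparisons. Against the control it was -0.24 with library totals and -0.07 with TMM after 3 h of amino acid starvation, and -0.21 with library totals and -0.04 with TMM after 3 h of glucose starvation. Members are given with that scaling as well where it changed their call.

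Of the 10 genes, Wipi2 and Atg12 had the largest rises over control cells. Wipi2, the phosphoinositide-binding protein that recruits ATG16L1, stood 3.03-fold above control cells after 3 h without amino acids. Atg12, the ubiquitin-like protein of the cascade, stood 2.96-fold above them after 6 h and 3.21-fold after 12 h. Atg16l1, Atg12 and Wipi2 were above control cells in all 6 starved groups. The share of all tested genes that rose in all 6 was not computed. In single comparisons with the control, 20.3% to 34.9% of all tested genes rose. Wipi1 was 0.525-fold the control level after 12 h without amino acids. With TMM scaling over all 14 libraries and the 17696 genes, this was its only change from the control that passed the test. Under some other settings, given below, more of its changes passed. Atg3 rose more without glucose than without amino acids, and Atg2a and Atg9a were higher without amino acids than without glucose at every time. A gene is said to rise, fall or differ where edgeR's quasi-likelihood test gave a Benjamini-Hochberg adjusted p under 0.05 over the 17696 genes.

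**Figure D1:**
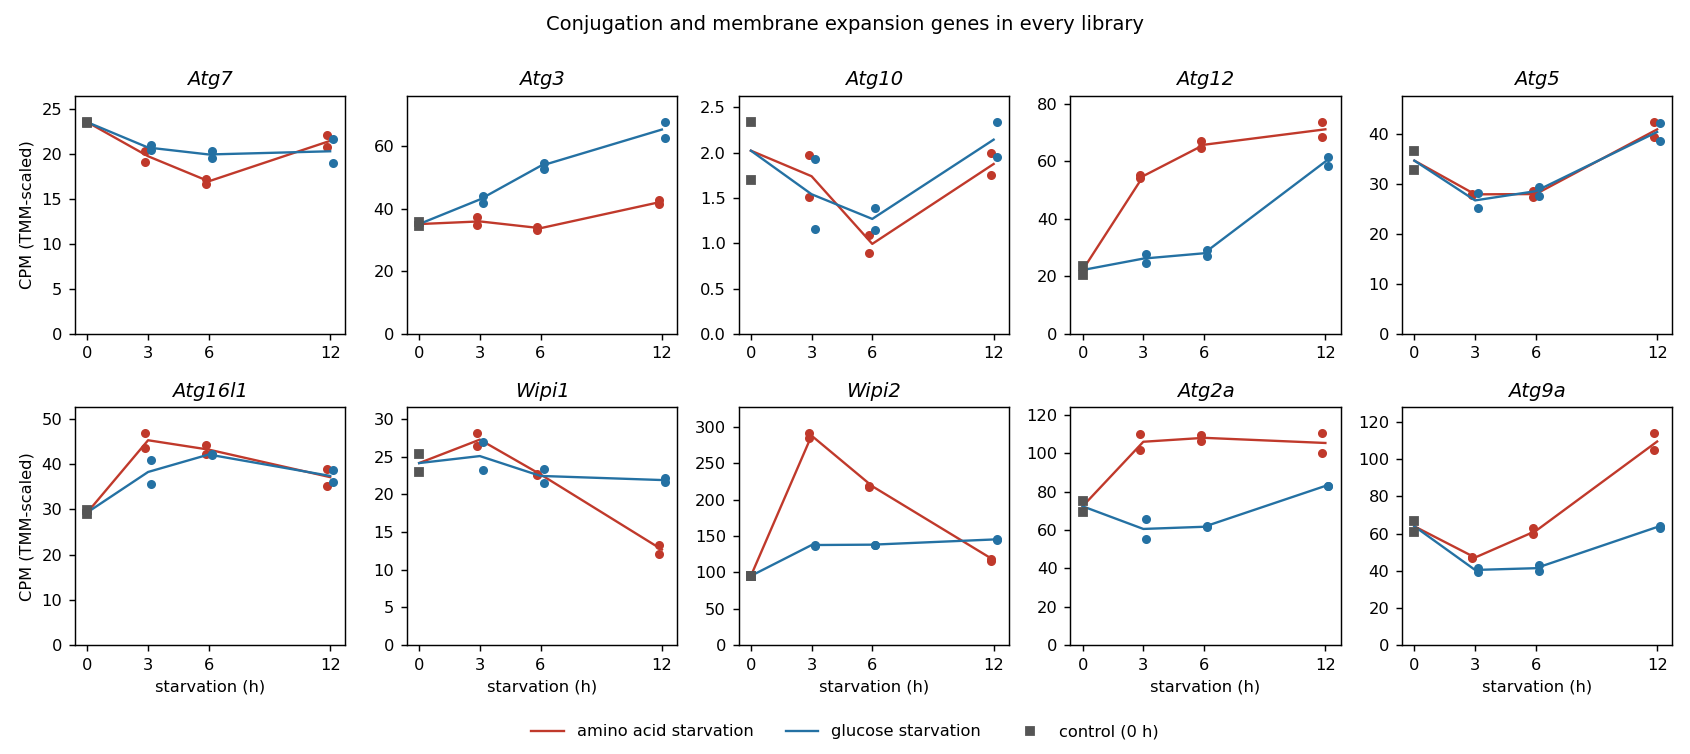
CPM (TMM-scaled, linear axes from 0) of each of the 10 genes against hours of starvation, with 1 point per library, lines through the means of 2 libraries, amino acid starvation in red, glucose starvation in blue and control cells as grey squares at 0 h. Wipi2 peaks at 3 h of amino acid starvation at 284 and 292 CPM, Atg12 climbs early without amino acids and late without glucose, and Wipi1 departs from the other groups only at 12 h of amino acid starvation.

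Against control cells, amino acid starvation moved most of the 10 genes at each time, and the shares have to be read against a transcriptome in which most genes moved. After 3 h, 4 members rose (Atg12, Atg16l1, Wipi2 and Atg2a) and 3 fell (Atg7, Atg5 and Atg9a), where 27.9% of all tested genes rose and 32.1% fell. After 6 h, 4 members rose (Atg12, Atg16l1, Wipi2 and Atg2a) and 3 fell (Atg7, Atg10 and Atg5), where 32.3% of all tested genes rose and 33.3% fell. After 12 h, 7 rose (Atg3, Atg12, Atg5, Atg16l1, Wipi2, Atg2a and Atg9a) and Wipi1 fell, where 34.9% of all tested genes rose and 32% fell. The fibroblast markers were also lowest in this group, at 2238 to 2440 CPM in sum, against 7468 to 8241 CPM in control cells. The members' median log2 fold change was 0.11, -0.06 and 0.28 at 3, 6 and 12 h, beside -0.07, -0.01 and 0.06 over all tested genes. The members thus moved in both directions at 3 and 6 h, and their median stood close to that of all genes at 6 h. With scaling by library totals, 34.2% of all calls at 3 h were rises, against 46.5% with TMM.

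Glucose starvation also moved most of the 10 genes at each time. After 3 h, 4 members rose (Atg3, Atg12, Atg16l1 and Wipi2) and 3 fell (Atg5, Atg2a and Atg9a), where 20.3% of all tested genes rose and 23.1% fell. After 6 h, 4 members rose (Atg3, Atg12, Atg16l1 and Wipi2) and 4 fell (Atg7, Atg5, Atg2a and Atg9a), where 23.3% of all tested genes rose and 24.2% fell. After 12 h, 6 rose (Atg3, Atg12, Atg5, Atg16l1, Wipi2 and Atg2a) and Atg7 fell, where 30.4% of all tested genes rose and 28% fell. The members' median log2 fold change was -0.06, -0.17 and 0.21 at 3, 6 and 12 h, beside -0.04, -0.01 and 0.01 over all tested genes. Without replicate 1 of 6 h glucose starvation, 5 members were called at 6 h in place of 8, and without replicate 1 of 12 h glucose starvation, 4 were called at 12 h in place of 7. With scaling by library totals, rises made up 25.7% of all calls at 3 h and 33.1% at 6 h, against 46.8% and 49% with TMM.

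**Figure D2:**
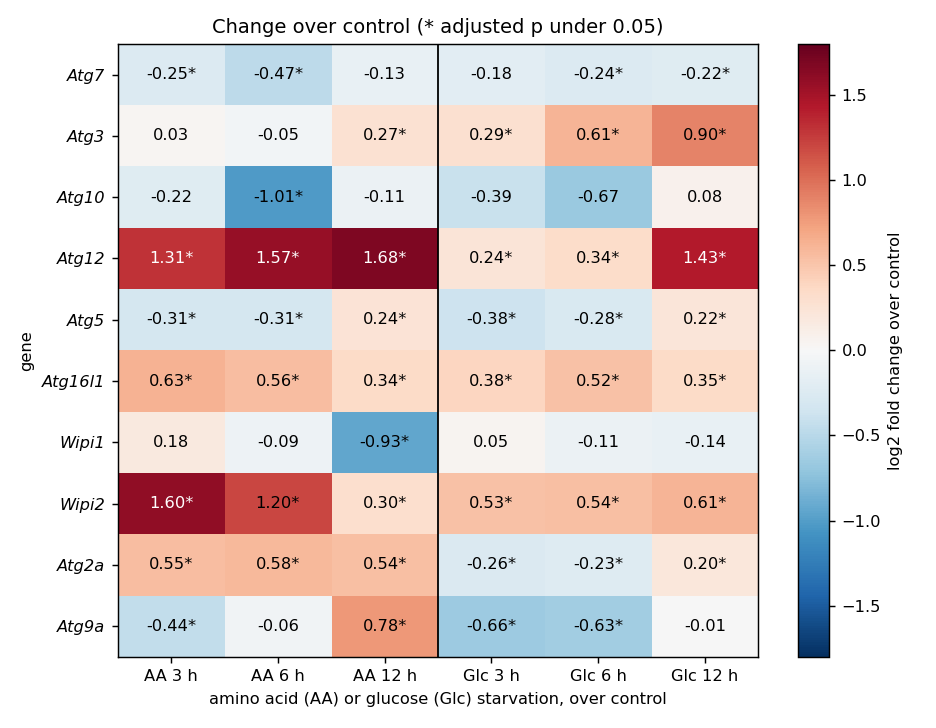
Log2 fold change over control cells of each gene (rows) in each starved group (columns, amino acid starvation left and glucose starvation right of the black line), red for higher and blue for lower than control, with an asterisk where edgeR's adjusted p was under 0.05. Atg12 and Wipi2 reach 1.68 and 1.60, Atg16l1 is positive throughout, and Atg2a is positive after amino acid starvation and negative after 3 and 6 h of glucose starvation.

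Atg7 encodes the enzyme that activates both ubiquitin-like proteins of the pathway. It had 19.1 and 20.4 CPM after 3 h of amino acid starvation, 16.7 and 17.2 CPM after 6 h and 20.8 and 22.1 CPM after 12 h. After 3, 6 and 12 h of glucose starvation it had 20.98 and 20.5, 20.3 and 19.6, and 19.0 and 21.6 CPM, against 23.5 and 23.6 CPM in control cells. All 12 starved libraries were below both control libraries, and 6 h of amino acid starvation was lowest. By edgeR, the log2 fold change over control was -0.25 (SE 0.088, adjusted p = 0.0144) and -0.47 (SE 0.088, adjusted p = 2.63e-05) after 3 and 6 h of amino acid starvation. It was -0.24 (SE 0.088, adjusted p = 0.0263) and -0.22 (SE 0.087, adjusted p = 0.0342) after 6 and 12 h of glucose starvation by edgeR. The other 2 groups missed the threshold, at -0.13 after 12 h of amino acid starvation (edgeR adjusted p = 0.177) and -0.18 after 3 h of glucose starvation (edgeR adjusted p = 0.0956). That 3 h value passed it with library totals (-0.35, edgeR adjusted p = 0.00152), with the sum of the gene's transcript lines (-0.30, edgeR adjusted p = 0.00451) and with the line of fewest reads (-0.45, edgeR adjusted p = 0.0014). Of these calls, the one at 3 h without amino acids was lost without its replicate 1 (-0.21, edgeR adjusted p = 0.12) and in a fit of only the groups compared (-0.21, edgeR adjusted p = 0.0588). The call at 6 h without glucose was lost when any of the 4 libraries compared was left out (edgeR adjusted p of 0.0667 without its replicate 1, 0.147 without its replicate 2, 0.0702 and 0.0808 without control replicates 1 and 2), with a filter of at least 1 read (edgeR adjusted p = 0.0502) and with the fewest-read line (edgeR adjusted p = 0.123). The call at 12 h without glucose was lost without its replicate 1 (edgeR adjusted p = 0.373) or either control library (edgeR adjusted p of 0.0818 and 0.0955), with the sum of lines (-0.13, edgeR adjusted p = 0.165) and with the fewest-read line (-0.04, edgeR adjusted p = 0.785).

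Atg3, the enzyme that transfers LC3 and its relatives to lipid, followed another course. It had 34.7 and 37.3 CPM after 3 h of amino acid starvation, 33.3 and 34.3 CPM after 6 h and 41.7 and 43.0 CPM after 12 h. At the same times of glucose starvation the values were 41.8 and 44.2, 54.8 and 52.7, and 67.9 and 62.8 CPM, against 35.9 and 34.4 CPM in control cells. The libraries without glucose were higher at each later time with no overlap, whereas those at 3 h without amino acids overlapped the control. The log2 fold change over control by edgeR was 0.03, -0.05 and 0.27 along amino acid starvation (SE 0.071, 0.071 and 0.070, adjusted p of 0.698, 0.515 and 0.0013). Along glucose starvation it was 0.29 (SE 0.071, adjusted p = 0.00129), 0.61 (SE 0.070, adjusted p = 2.38e-08) and 0.90 (SE 0.070, adjusted p = 4.14e-12) by edgeR. With scaling by library totals, the value at 3 h of glucose starvation was 0.12 (edgeR adjusted p = 0.153).

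Atg10, the enzyme that joins ATG12 to ATG5, had few reads, 38 to 107 per library. It had 1.97 and 1.51 CPM after 3 h of amino acid starvation, 0.898 and 1.09 CPM after 6 h and 1.75 and 2.001 CPM after 12 h. Along glucose starvation its levels were 1.93 and 1.16, 1.15 and 1.39, and 1.95 and 2.34 CPM, against 1.70 and 2.34 CPM in control cells. Both libraries at 6 h were below the control in either starvation, and the other groups overlapped the control. By edgeR, the fall passed the test after 6 h of amino acid starvation, with a log2 fold change of -1.01 (SE 0.29, adjusted p = 0.00312), and was lost without control replicate 2 (-0.77, edgeR adjusted p = 0.0655). After 6 h of glucose starvation the value was -0.67 (SE 0.29, edgeR adjusted p = 0.0612), and it passed the threshold with library totals (-0.80, edgeR adjusted p = 0.0241) and without control replicate 1 (-0.88, edgeR adjusted p = 0.04). After 3 h of amino acid starvation, the 95% confidence interval against the control was 1.15 wide on the log2 scale for Atg10 and 0.210 for Wipi2. Differences as small as those of Atg7 and Atg5 in that comparison (log2 fold changes of -0.25 and -0.31) could thus be missed for Atg10 at this depth.

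Promoter sequence was taken from RefSeq on the build GRCm38.p6, where 8 of the 10 genes were matched, as 250 bases before and 50 after the annotated start. The submitters' processing notes name GRCm39 for the counts, so the windows are matched to the genes by symbol. Both strands were searched for 6 short motifs. CACGTG, the core of sites bound by the MiT/TFE factors, was in the windows of Atg7, Atg3 and Atg5, that is 3 of 8, and in 7.15% of 32851 promoter windows. The longer TCACGTGA was in Atg3 alone of the 8 and in 0.974% of all windows, and it contains the shorter motif. TGACGTCA, the cyclic AMP response element, was in Atg5 alone of the 8 and in 1.79% of all windows. TTGCATCA, bound by ATF4 with C/EBP partners, TGTTTAC of forkhead factors and TGAGTCA of AP-1 were in none of the 8 and in 0.895%, 3.65% and 5.2% of all windows. The windows of Atg3 and Atg5 are shown because they hold most of these matches, in genes that moved differently without glucose, and those of Wipi1 and Wipi2 because these related genes moved apart and their windows hold none of the 6. Each runs from 120 bases before the start to the base 10 after it, 5′ to 3′ on the gene's own strand, with matches in capitals. Atg3 lies at chr16:45158709-45158838 on the plus strand, Atg5 at chr10:44268219-44268348 on the plus strand, Wipi1 at chr11:109611380-109611509 on the minus strand and Wipi2 at chr5:142629464-142629593 on the plus strand. A match is a string of letters, and binding was not measured.
Atg3: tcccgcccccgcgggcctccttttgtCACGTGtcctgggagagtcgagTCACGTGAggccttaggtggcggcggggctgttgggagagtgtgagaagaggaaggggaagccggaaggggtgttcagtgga
Atg5: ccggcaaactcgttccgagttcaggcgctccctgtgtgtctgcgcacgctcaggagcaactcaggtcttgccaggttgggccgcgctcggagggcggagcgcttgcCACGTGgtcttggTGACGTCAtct
Wipi1: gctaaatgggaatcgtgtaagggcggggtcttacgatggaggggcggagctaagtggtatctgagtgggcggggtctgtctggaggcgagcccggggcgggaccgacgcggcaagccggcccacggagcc
Wipi2: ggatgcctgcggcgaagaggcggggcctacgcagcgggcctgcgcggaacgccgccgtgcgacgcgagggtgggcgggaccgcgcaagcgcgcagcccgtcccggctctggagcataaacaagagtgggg

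In these windows, the first CACGTG of Atg3 begins 94 bases before the start, the second begins 71 bases before it inside TCACGTGA, and that of Atg5 begins 14 bases before it. TGACGTCA of Atg5 spans the start itself. The start of the RefSeq window lay within 44 bases of the start of the transcript counted here for 6 of the 8 genes. It lay 186 bases away for Atg9a and 27999 bases away for Atg7, whose window is therefore that of another start. GC content was 67.3% in the 300-base window of Atg3, 59.3% in Atg5, 69% in Wipi1 and 69.7% in Wipi2, beside a median of 52.7% over all windows.

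Atg12, the ubiquitin-like protein that is joined to ATG5, rose early without amino acids and late without glucose. It had 54.3 and 55.3 CPM after 3 h of amino acid starvation, 66.9 and 64.4 CPM after 6 h and 68.4 and 73.7 CPM after 12 h. After 3, 6 and 12 h of glucose starvation it had 27.8 and 24.5, 27.0 and 29.0, and 58.3 and 61.5 CPM, against 20.6 and 23.7 CPM in control cells. All starved libraries were above both control libraries, and the 3 and 6 h libraries without glucose lay far closer to the control than to any other starved group. By edgeR, the log2 fold change over control was 1.31 (SE 0.079, adjusted p = 1.39e-14), 1.57 (SE 0.078, adjusted p = 1.4e-16) and 1.68 (SE 0.078, adjusted p = 1.75e-17) along amino acid starvation. In glucose starvation the value was 0.24 (SE 0.082, adjusted p = 0.0202), 0.34 (SE 0.081, adjusted p = 0.00103) and 1.43 (SE 0.078, adjusted p = 1.75e-15) by edgeR. The rise at 3 h of glucose starvation was lost without control replicate 1 (0.13, edgeR adjusted p = 0.282), without its own replicate 1 (0.14, edgeR adjusted p = 0.253), with library totals (0.07, edgeR adjusted p = 0.51) and in a fit of only the groups compared (0.26, edgeR adjusted p = 0.0576).

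Atg5, the partner of ATG12 in the conjugate, moved the same way in both starvations. It had 28.0 and 27.9 CPM after 3 h of amino acid starvation, 28.7 and 27.4 CPM after 6 h and 39.4 and 42.6 CPM after 12 h. At the same times of glucose starvation the values were 25.3 and 28.2, 27.7 and 29.5, and 42.3 and 38.7 CPM, against 32.8 and 36.7 CPM in control cells. The 3 and 6 h libraries were below the control and the 12 h libraries above it, with no overlap. The log2 fold change over control by edgeR was -0.31 (SE 0.082, adjusted p = 0.00161), -0.31 (SE 0.081, adjusted p = 0.00137) and 0.24 (SE 0.080, adjusted p = 0.00951) along amino acid starvation. Without glucose it was -0.38 (SE 0.083, adjusted p = 0.000473), -0.28 (SE 0.082, adjusted p = 0.00603) and 0.22 (SE 0.080, adjusted p = 0.0182) by edgeR. The rises at 12 h were the less firm: without control replicate 1 they were 0.16 without amino acids (edgeR adjusted p = 0.146) and 0.14 without glucose (edgeR adjusted p = 0.212). They were also lost without replicate 2 of 12 h amino acid starvation (0.14, edgeR adjusted p = 0.218) or replicate 1 of 12 h glucose starvation (0.15, edgeR adjusted p = 0.214), and that without glucose with library totals (0.12, edgeR adjusted p = 0.205). Summing the transcript lines of every gene, which leaves Atg5 with its single line but changes the scaling and the other genes, ended both (edgeR adjusted p of 0.0546 without amino acids and 0.0569 without glucose), and a fit of only the groups compared ended the one without amino acids (edgeR adjusted p = 0.0619). The fall at 6 h of glucose starvation was lost without its replicate 1 (-0.23, edgeR adjusted p = 0.0801) or control replicate 2 (-0.19, edgeR adjusted p = 0.107).

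Atg16l1, which brings the conjugate to the membrane, was higher in every starved group. It had 43.6 and 46.9 CPM after 3 h of amino acid starvation, 42.3 and 44.2 CPM after 6 h and 39.0 and 35.3 CPM after 12 h. Along glucose starvation its levels were 41.0 and 35.5, 42.3 and 41.9, and 38.6 and 36.1 CPM, against 29.8 and 28.9 CPM in control cells. No starved library overlapped the control. By edgeR, the log2 fold change over control was 0.63 (SE 0.078, adjusted p = 6.01e-08), 0.56 (SE 0.078, adjusted p = 3.04e-07) and 0.34 (SE 0.078, adjusted p = 0.000373) along amino acid starvation. Along glucose starvation it was 0.38 (SE 0.080, adjusted p = 0.000238), 0.52 (SE 0.079, adjusted p = 2.63e-06) and 0.35 (SE 0.079, adjusted p = 0.000335) by edgeR. The value at 12 h of amino acid starvation was 0.22 without its replicate 1 (edgeR adjusted p = 0.0421), and that at 3 h of glucose starvation was 0.22 with library totals (edgeR adjusted p = 0.0283).

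Wipi2 changed early and strongly without amino acids and evenly without glucose. It had 284 and 292 CPM after 3 h of amino acid starvation, 219.6 and 218 CPM after 6 h and 119 and 115 CPM after 12 h. After 3, 6 and 12 h of glucose starvation it had 137 and 138, 138 and 138, and 145 and 146 CPM, against 95.6 and 94.9 CPM in control cells. The amino acid groups were far apart from each other, whereas the glucose libraries lay within a narrow band above the control. The log2 fold change over control by edgeR was 1.60 (SE 0.052, adjusted p = 7.05e-21), 1.199 (SE 0.052, adjusted p = 4.73e-18) and 0.30 (SE 0.052, adjusted p = 8.85e-06) along amino acid starvation. In glucose starvation the value was 0.53 (SE 0.052, adjusted p = 1.32e-09), 0.54 (SE 0.052, adjusted p = 8.85e-10) and 0.61 (SE 0.052, adjusted p = 2.88e-11) by edgeR.

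Wipi1, the other WIPI protein of the set, did not follow Wipi2. It had 26.4 and 28.2 CPM after 3 h of amino acid starvation, 22.8 and 22.5 CPM after 6 h and 13.2 and 12.1 CPM after 12 h. At the same times of glucose starvation the values were 23.3 and 26.9, 23.3 and 21.6, and 22.2 and 21.6 CPM, against 25.3 and 23.0 CPM in control cells. The 12 h libraries without amino acids were far below all others. By edgeR, the log2 fold change over control was 0.18 (SE 0.089, adjusted p = 0.0906), -0.09 (SE 0.089, adjusted p = 0.367) and -0.93 (SE 0.092, adjusted p = 4.18e-10) along amino acid starvation. Without glucose it was 0.05, -0.11 and -0.14, with SE of 0.090, 0.090 and 0.089 (edgeR adjusted p of 0.66, 0.351 and 0.183). With library totals it was lower at 6 h (-0.24, edgeR adjusted p = 0.0303) and 12 h (-0.25, edgeR adjusted p = 0.0206) of glucose starvation. At 3 h of amino acid starvation, the value passed the threshold with RLE scaling (0.21, edgeR adjusted p = 0.0401), with a filter of 1 CPM in 4 libraries (0.22, edgeR adjusted p = 0.0301) and in a fit of only the groups compared (0.22, edgeR adjusted p = 0.0417).

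Atg2a, the lipid-transfer protein, moved in opposite directions in the early hours of the starvations. It had 110.1 and 102 CPM after 3 h of amino acid starvation, 107 and 109.5 CPM after 6 h and 110.7 and 100.1 CPM after 12 h. Along glucose starvation its levels were 65.7 and 55.5, 61.4 and 62.0, and 83.1 and 82.9 CPM, against 75.4 and 69.4 CPM in control cells. The amino acid libraries were above the control at all times, and the glucose libraries below it at 3 and 6 h and above it at 12 h. The log2 fold change over control by edgeR was 0.55 (SE 0.069, adjusted p = 6.64e-08), 0.58 (SE 0.069, adjusted p = 1.79e-08) and 0.54 (SE 0.069, adjusted p = 5.65e-08) along amino acid starvation. Along glucose starvation it was -0.26 (SE 0.071, adjusted p = 0.00396), -0.23 (SE 0.071, adjusted p = 0.00815) and 0.20 (SE 0.070, adjusted p = 0.016) by edgeR. Each of the 3 glucose calls rested on single libraries. At 3 h the call was lost without control replicate 1 (-0.20, edgeR adjusted p = 0.0567) or its own replicate 2 (-0.14, edgeR adjusted p = 0.136), and at 6 h without control replicate 1 (-0.17, edgeR adjusted p = 0.103) or its own replicate 1 (-0.22, edgeR adjusted p = 0.0559). At 12 h it was lost without control replicate 2 (0.14, edgeR adjusted p = 0.157), without either of its own libraries (edgeR adjusted p of 0.0662 and 0.0517), with library totals (0.09, edgeR adjusted p = 0.27) and with lines summed for every gene (0.18, edgeR adjusted p = 0.0666).

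Atg9a, the vesicle membrane protein, fell early and was highest after 12 h without amino acids. It had 46.8 and 47.4 CPM after 3 h of amino acid starvation, 63.0 and 59.8 CPM after 6 h and 114 and 105 CPM after 12 h. After 3, 6 and 12 h of glucose starvation it had 41.4 and 39.5, 43.1 and 39.6, and 63.1 and 63.9 CPM, against 66.8 and 61.0 CPM in control cells. The groups at 6 h without amino acids and 12 h without glucose overlapped the control, and the others did not. By edgeR, the log2 fold change over control was -0.44 (SE 0.068, adjusted p = 1.91e-06), -0.06 (SE 0.066, adjusted p = 0.455) and 0.78 (SE 0.066, adjusted p = 1.46e-11) along amino acid starvation. In glucose starvation the value was -0.66 (SE 0.069, adjusted p = 4.62e-09), -0.63 (SE 0.068, adjusted p = 9.16e-09) and -0.01 (SE 0.066, adjusted p = 0.926) by edgeR. In the GENCODE M21 annotation, 1873 of the 4041 bases of the Atg9a transcript (46.3%) lie in exons of Gm29253 on the same strand or Ankzf1 on the opposite strand, and the sources used here do not say whether counting used strand, so the origin of part of these reads is uncertain. Gm29253 itself had log2 fold changes of -0.53, -0.33 and 0.46 without amino acids, in the order of the times, and -0.44, -0.47 and -0.08 without glucose. Ankzf1 had -0.48, 0.49 and 0.74 without amino acids and -0.20, 0.19 and 0.20 without glucose. None of the other 9 transcripts shared an exon base with another annotated gene.

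The starvations were then compared with each other at equal times, a contrast in which both sides had the change of medium and the dialyzed serum. Atg12, Atg2a and Atg9a were higher without amino acids at all 3 times, and Atg3 was lower at all 3. The shares of all tested genes that were higher or lower at all 3 were not computed. At 3 h, 5 members were higher without amino acids than without glucose (Atg12, Atg16l1, Wipi2, Atg2a and Atg9a) and Atg3 was lower, where 26.7% of all tested genes were higher and 27.7% lower. At 6 h, 4 were higher (Atg12, Wipi2, Atg2a and Atg9a) and 2 lower (Atg7 and Atg3), where 31.5% of all tested genes were higher and 32.3% lower. At 12 h, 3 were higher (Atg12, Atg2a and Atg9a) and 3 lower (Atg3, Wipi1 and Wipi2), where 32.5% of all tested genes were higher and 31.6% lower. The members' median log2 fold change was 0.20, 0.03 and 0.00 at 3, 6 and 12 h, beside -0.03, -0.01 and 0.03 over all tested genes. With scaling by library totals, 65.5% of all calls at 12 h were higher without amino acids, against 50.8% with TMM, and the median of all genes stood at 0.27.

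The order of the starvations was the same at each time for some genes and turned for Wipi2. Atg12 differed by a log2 of 1.07 (SE 0.079, edgeR adjusted p = 2.87e-12) at 3 h, 1.23 (SE 0.078, edgeR adjusted p = 3.43e-14) at 6 h and 0.25 (SE 0.074, edgeR adjusted p = 0.00422) at 12 h. Wipi2 differed by 1.07 (SE 0.052, edgeR adjusted p = 2.48e-16) at 3 h and 0.66 (SE 0.051, edgeR adjusted p = 2.85e-12) at 6 h, and was lower without amino acids at 12 h, at -0.31 (SE 0.051, edgeR adjusted p = 4.95e-06). Atg3 differed by -0.26 (SE 0.071, edgeR adjusted p = 0.00318), -0.67 (SE 0.070, edgeR adjusted p = 1.74e-09) and -0.63 (SE 0.069, edgeR adjusted p = 3.37e-09) at 3, 6 and 12 h. Atg2a differed by 0.81 at 3 and at 6 h and 0.34 at 12 h (SE 0.071, 0.070 and 0.069, edgeR adjusted p of 9e-11, 3.28e-11 and 7.07e-05). Atg9a differed by 0.22, 0.57 and 0.79 (SE 0.070, 0.068 and 0.066, edgeR adjusted p of 0.00867, 2.17e-08 and 1.41e-11). For Wipi1 the difference was -0.79 (SE 0.093, edgeR adjusted p = 1.37e-08) at 12 h, beside 0.12 and 0.01 at 3 and 6 h (edgeR adjusted p of 0.271 and 0.905). Atg5 differed by 0.06, -0.03 and 0.02, with 95% confidence intervals of -0.11 to 0.24, -0.20 to 0.14 and -0.15 to 0.18 at 3, 6 and 12 h with TMM.

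Some of these differences rested on single libraries or on the scaling. At 3 h, the Atg3 difference was lost without replicate 1 of amino acid starvation (-0.20, edgeR adjusted p = 0.0654), that of Atg9a without replicate 2 of glucose starvation (0.19, edgeR adjusted p = 0.0671) and that of Atg16l1 (0.24, SE 0.078, edgeR adjusted p = 0.00982) without replicate 2 of either starvation (edgeR adjusted p of 0.11 and 0.201). Atg7 at 6 h (-0.23, SE 0.090, edgeR adjusted p = 0.025) was lost without any 1 of the 4 libraries compared, with DESeq2 (adjusted p = 0.0612) and with library totals (edgeR adjusted p = 0.0825). At 12 h, the Atg12 difference was lost without replicate 2 of amino acid starvation (0.17, edgeR adjusted p = 0.116) or replicate 1 of glucose starvation (0.21, edgeR adjusted p = 0.0592). With library totals, where the median of all genes stood at 0.27, that of Wipi2 at 12 h was -0.07 (edgeR adjusted p = 0.218). With that scaling Atg5 (0.25, edgeR adjusted p = 0.00536), Atg7 (0.32, edgeR adjusted p = 0.00185) and Atg16l1 (0.23, edgeR adjusted p = 0.013) were higher without amino acids at 12 h, beside 0.02, 0.08 and -0.01 with TMM.

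**Figure D3:**
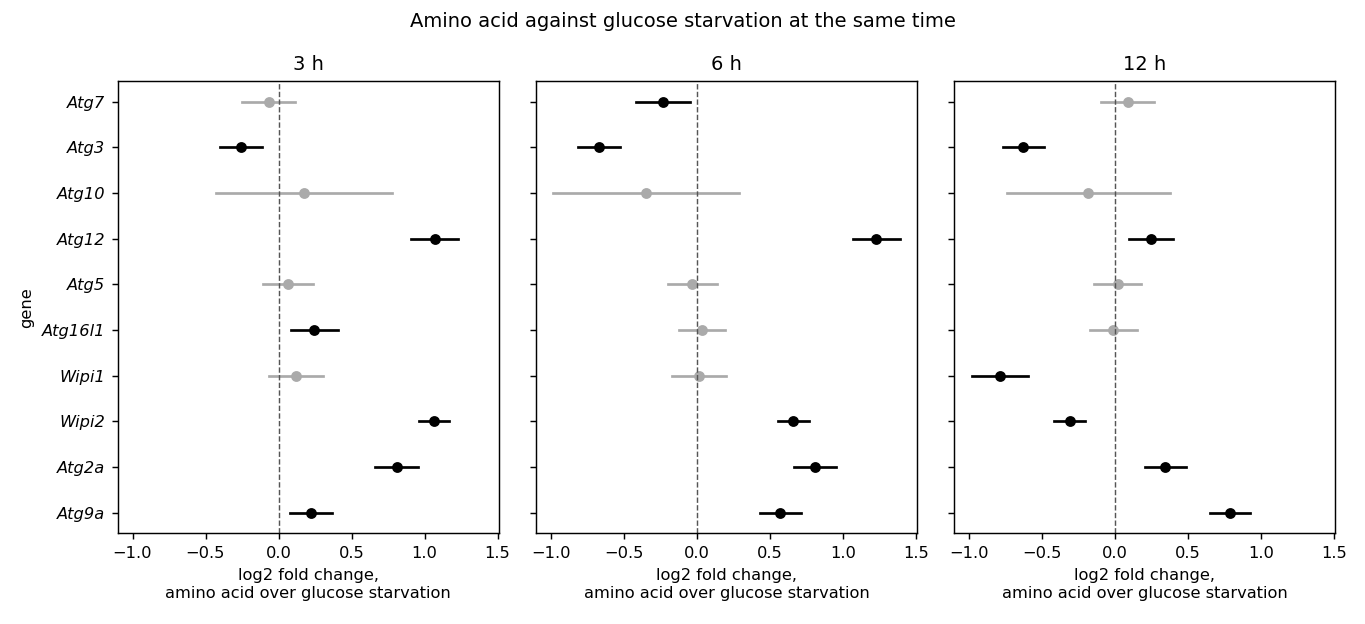
Log2 fold change of amino acid over glucose starvation at 3, 6 and 12 h for each gene (points, with 95% confidence intervals from edgeR), black where the adjusted p was under 0.05 and grey otherwise. Atg12, Atg2a and Atg9a stay right of 0 and Atg3 left of it at all 3 times, whereas Wipi2 lies at 1.07 at 3 h and at -0.31 at 12 h.

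Between 3 and 12 h, levels changed within each starvation as well. Under amino acid starvation, 4 members were higher at 12 h than at 3 h (Atg3, Atg12, Atg5 and Atg9a) and 3 lower (Atg16l1, Wipi1 and Wipi2), where 35.5% of all tested genes were higher and 32.9% lower. Under glucose starvation, 5 were higher at 12 h (Atg3, Atg12, Atg5, Atg2a and Atg9a), where 31.8% of all tested genes were higher. No member was lower there by edgeR, where 25.5% of all tested genes were lower, although Wipi1, at -0.20 with an unadjusted p of 0.04, lay close to the threshold. DESeq2 called it lower (-0.24, adjusted p = 0.0317), and so did edgeR with RLE scaling (adjusted p = 0.0247), a filter of at least 1 read (0.0289), 1 CPM in 4 libraries (0.0412), only the groups compared (0.0361), the sum of lines (0.0221) and the fewest-read line (0.0383). It was also called in 3 of the fits that left out 1 library, the lowest value being -0.29 without replicate 1 at 3 h (edgeR adjusted p = 0.0208). The members' median log2 fold change was 0.12 under amino acid starvation and 0.46 under glucose starvation, beside 0.04 and 0.07 over all tested genes. With scaling by library totals, 68% of all calls under amino acid starvation were higher at 12 h, against 51.9% with TMM, and the median of all genes stood at 0.35.

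Atg9a and Atg5 were higher at 12 h than at 3 h in both starvations. Atg9a had a log2 fold change of 1.22 (SE 0.067, edgeR adjusted p = 9.5e-16) under amino acid starvation and 0.65 (SE 0.069, edgeR adjusted p = 2.83e-09) under glucose starvation. Atg5 had 0.55 (SE 0.081, edgeR adjusted p = 6.8e-07) under amino acid starvation and 0.60 (SE 0.083, edgeR adjusted p = 3.75e-07) under glucose starvation, and the difference of these changes was -0.05 (95% confidence interval -0.28 to 0.19). Wipi2 and Wipi1 both fell with time without amino acids, by 1.298 (SE 0.052, edgeR adjusted p = 3.71e-19) and 1.11 (SE 0.092, edgeR adjusted p = 1.09e-11) on the log2 scale. Atg12 had its largest step of this kind without glucose, at 1.195 (SE 0.079, edgeR adjusted p = 1.33e-13). The fall of Atg16l1 under amino acid starvation, at -0.29 (SE 0.077, edgeR adjusted p = 0.00165), became 0.02 with library totals (edgeR adjusted p = 0.806). With that scaling Atg7 (0.43, edgeR adjusted p = 8.07e-05) and Atg2a (0.30, edgeR adjusted p = 0.000348) rose under amino acid starvation. With TMM they were at 0.12 (edgeR adjusted p = 0.228) and -0.01 (edgeR adjusted p = 0.917). Under glucose starvation, Wipi2 rose with library totals (0.14, edgeR adjusted p = 0.0207), against 0.08 with TMM (edgeR adjusted p = 0.201). The rise of Atg3 under amino acid starvation, at 0.23 (SE 0.070, edgeR adjusted p = 0.00444), was lost without replicate 1 at 3 h (0.18, edgeR adjusted p = 0.0758) or replicate 2 at 12 h (0.17, edgeR adjusted p = 0.0997).

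The change over time differed between the starvations for 6 members when the difference itself was tested. It was more positive without amino acids for Atg9a, and less positive or more negative for Atg3, Atg12, Wipi1, Wipi2 and Atg2a, where 21.7% of all tested genes were more positive and 25.7% more negative. The largest difference was that of Wipi2, at -1.38 on the log2 scale (SE 0.073, edgeR adjusted p = 2.34e-15). With scaling by library totals, 66% of all such calls were more positive, against 45.8% with TMM, and the calls of Atg3 (-0.13, edgeR adjusted p = 0.307) and Atg2a (-0.22, edgeR adjusted p = 0.0739) were lost, with the median of all genes at 0.23. Atg16l1, at -0.26 (edgeR adjusted p = 0.0568), passed the threshold with RLE scaling (-0.27, edgeR adjusted p = 0.0465), and Atg7, at 0.15 with TMM, passed it with library totals (0.40, edgeR adjusted p = 0.00866). Atg16l1 also passed it with a block for replicate number and in some, but not all, fits that left out 1 library.

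Per kilobase of transcript, which allows genes to be ranked, the order of the 10 genes changed with starvation. In control cells the order was Wipi2 at 18.4 CPM per kilobase, Atg3 at 17.1, Atg9a at 15.8, Atg5 at 14.8, Atg2a at 11.4, Atg16l1 at 9.46, Wipi1 at 7.24, Atg7 at 6.26, Atg12 at 4.65 and Atg10 at 1.28. Only Atg9a and Atg5 overlapped among neighbours in this order. After 3 h without amino acids Wipi2 stood at 55.8 CPM per kilobase, and Atg3, next in order, at 17.5. After 12 h without amino acids Atg9a, whose reads partly cannot be told from those of its overlapping neighbours, led at 27.1, followed by Wipi2 at 22.7 and Atg3 at 20.6, and Wipi1 at 3.80 stood below Atg7 at 5.71. After 12 h without glucose Atg3 led at 31.8, ahead of Wipi2 at 28.1. Atg10 was lowest in all 7 groups, between 0.627 and 1.35 CPM per kilobase. Atg12, ninth in control cells, reached 14.9 after 12 h without amino acids and 12.6 after 12 h without glucose.

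**Figure D4:**
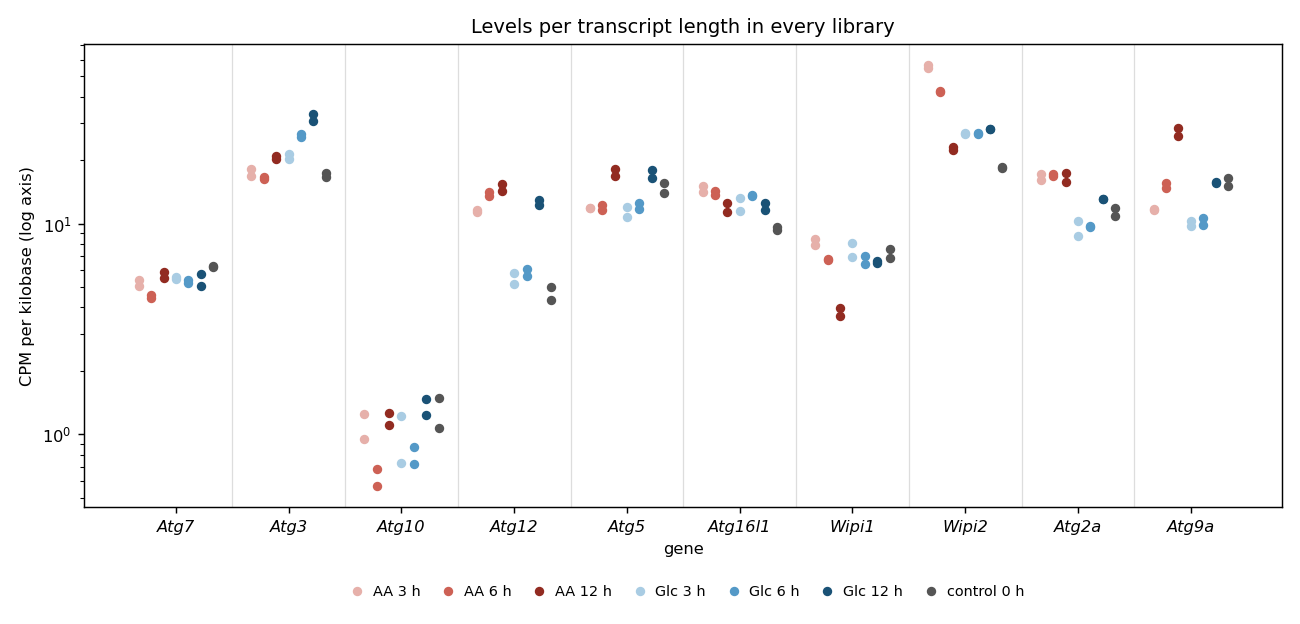
CPM per kilobase of transcript (log axis) of each gene in each library, with the starved groups left of the control within each gene and 2 points per group. Wipi2 reaches 55.0 and 56.5 in the libraries at 3 h of amino acid starvation, and Atg10 lies lowest in every group. The 12 h amino acid libraries of Wipi1 lie apart below the rest of that gene.

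Across the 7 groups, the genes did not share a single profile. Over the 7 mean log2 CPM values, Pearson's correlation between members was highest for Atg12 and Atg2a (0.877), Atg16l1 and Wipi2 (0.851) and Atg5 and Atg9a (0.814), and lowest for Wipi1 and Atg9a (-0.847). Among 9143 other genes of at least 3 log2 CPM, the profile most like that of Atg12 was Sirt1 (0.999), followed by Ptpn2 (0.995) and Ccdc174 (0.993). The profile most like that of Wipi2 was Bbc3 (0.985), followed by Plcxd2 (0.983) and Wdr48 (0.981). The profile most like that of Atg9a was Dcaf11 (0.997), followed by Slc22a5 (0.988) and Chmp1a (0.987). These are descriptions over 7 points that share libraries and scaling.

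Of the 10 genes, 5 had a single transcript line, and for Atg16l1 and Atg9a the other lines held nearly the same reads as the line used. A 3895-base line of Atg7 also held nearly the same reads, at 99.5% to 99.9% over the 7 groups. The shorter lines of Atg7 and the other lines of Wipi1 and Wipi2 differed in their share by group. A 2012-base line of Atg7 held 61.7%, 61.5% and 66.4% of the reads of the 3761-base line after 3, 6 and 12 h of amino acid starvation and 54.5%, 67.0% and 73.9% after 3, 6 and 12 h of glucose starvation, against 65.3% in control cells. With the line of fewest reads, Atg7 was higher at 12 h than at 3 h of glucose starvation, at 0.41 (edgeR adjusted p = 0.0022), against -0.03 with the line used. The 1959-base line of Wipi2 held 56.4% to 63.4% of the reads of the line used over the 7 groups. The 1220-base line of Wipi1 held 46.0% after 12 h of amino acid starvation, against 41.1% in control cells. With the fewest-read line, the Wipi1 difference between the starvations at 12 h was -0.46 (edgeR adjusted p = 0.00469), against -0.79 with the line used. The lines share most of their sequence, so these shares do not give the amounts of single isoforms.

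**Figure D5:**
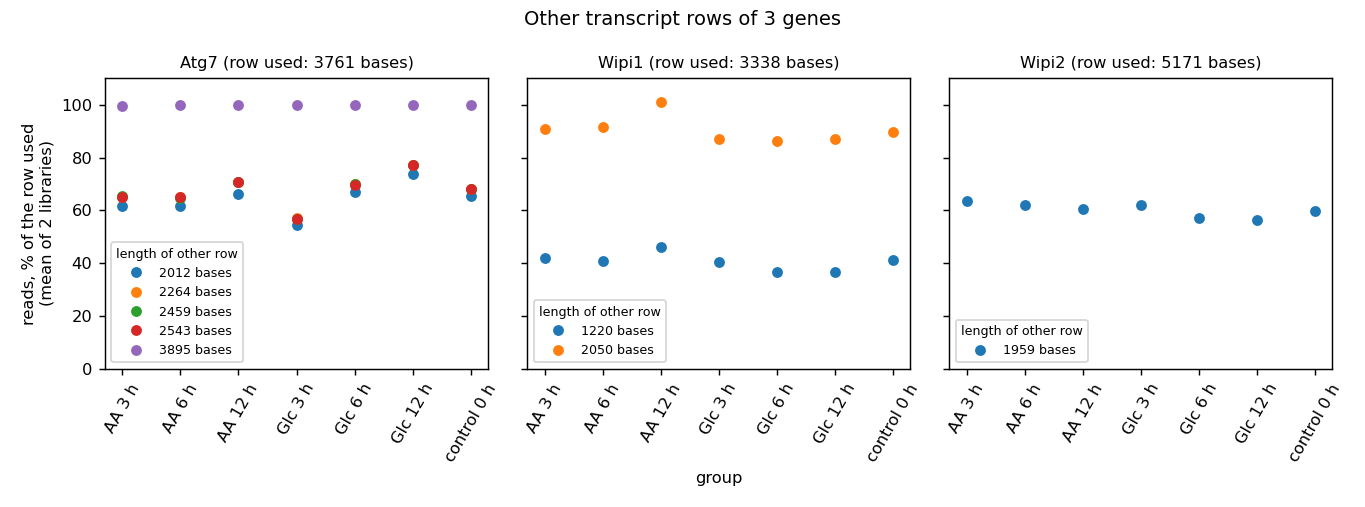
Reads of each other transcript line as a percentage of the line used, for Atg7, Wipi1 and Wipi2, in each group (1 point is the mean of 2 libraries). The shorter Atg7 lines, whose points largely overlap, run from 54.5% at 3 h to 77.3% at 12 h of glucose starvation, whereas those of Wipi2 stay between 56.4% and 63.4%.

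Among the other genes of autophagosome formation, the counts of rises and falls differed from list to list. Of 5 genes of the ULK1 complex, which starts the process, 4, 4 and 5 rose and 1, 1 and 0 fell after 3, 6 and 12 h of amino acid starvation, with medians of 0.85, 0.69 and 0.97. Along glucose starvation 1, 2 and 3 rose and 2, 2 and 1 fell, with medians of -0.10, -0.06 and 0.29. Ulk1, the kinase itself, averaged 96.1 ± 8.0 CPM after 12 h without amino acids and 50.01 ± 0.30 CPM after 12 h without glucose, against 48.9 ± 0.38 CPM in control cells (SD, n = 2 each). After 3 and 6 h without glucose Ulk1 was lower, at means of 32.0 and 29.0 CPM. Its log2 fold changes over control there were -0.61 and -0.75 (edgeR adjusted p of 1.41e-07 and 2.81e-09). Atg13, its regulatory subunit, averaged 64.2 ± 1.4 CPM after 12 h without amino acids and 67.3 ± 0.95 CPM after 12 h without glucose, against 24.1 ± 1.2 CPM in control cells (SD, n = 2 each). Of 7 genes of the VPS34 complexes, which make the lipid that WIPI proteins bind, 4, 5 and 6 rose and 2, 0 and 0 fell along amino acid starvation. Along glucose starvation 1, 3 and 6 rose and 1, 0 and 0 fell. Atg14, which directs the kinase to autophagosomes, averaged 25.6 ± 0.70 CPM after 12 h without amino acids and 39.3 ± 0.68 CPM after 12 h without glucose, against 12.7 ± 0.70 CPM in control cells (SD, n = 2 each).

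Among 9 genes of the ATG8 family and the ATG4 proteases that process it, 4, 5 and 5 rose and 3, 3 and 1 fell along amino acid starvation, and 1, 2 and 4 rose and 1, 2 and 1 fell along glucose starvation. Gabarapl1 averaged 105.6 ± 5.8 CPM after 6 h without amino acids and 38.9 ± 0.61 CPM after 6 h without glucose, against 33.1 ± 4.0 CPM in control cells (SD, n = 2 each). After 12 h it averaged 70.3 ± 1.2 CPM without amino acids and 57.2 ± 3.3 CPM without glucose (SD, n = 2 each). Its log2 fold change over control at 12 h without glucose was 0.79 (edgeR adjusted p = 1.58e-10). Of its transcript, 20.7% overlaps exons of 1700101I11Rik on the opposite strand, so the origin of part of these reads is uncertain. The falls after 3 and 6 h without amino acids were all of proteases (Atg4a, Atg4b and Atg4c). Of 5 close relatives of the 10 genes, 3, 3 and 4 rose and 1, 1 and 1 fell along amino acid starvation, and 1, 1 and 3 rose and 1, 2 and 1 fell along glucose starvation. Atg2b, the paralog of Atg2a, had log2 fold changes of 0.35, 0.58 and 0.67 along amino acid starvation (SE 0.064, 0.063 and 0.063, edgeR adjusted p of 2.31e-05, 3.04e-09 and 1.43e-10). Along glucose starvation Atg2b had -0.07, 0.09 and 0.22 (edgeR adjusted p of 0.375, 0.265 and 0.00339). The WIPI relative Wdr45b had 0.51, 0.59 and 0.47 along amino acid starvation (edgeR adjusted p of 4.53e-09, 1.55e-10 and 1.43e-08) and -0.16, -0.05 and 0.27 along glucose starvation (edgeR adjusted p of 0.0212, 0.461 and 0.000145). Wdr45, another WIPI relative, rose in all 6 starved groups, by 1.78, 1.97 and 1.27 on the log2 scale without amino acids and by 0.70, 1.18 and 1.54 without glucose, but 50.8% of its transcript overlaps exons of Gm45208.

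Vmp1 and Tmem41b, the scramblases of the endoplasmic reticulum that work with ATG2 proteins, both rose at all 3 times without glucose. Tmem41b had log2 fold changes of 0.05, -0.15 and -0.04 along amino acid starvation (edgeR adjusted p of 0.554, 0.0515 and 0.615). Along glucose starvation it had 0.55, 0.83 and 0.94 (SE 0.068, 0.067 and 0.067, edgeR adjusted p of 1.14e-07, 2.37e-11 and 5.73e-13). Vmp1 passed the test without amino acids only at 3 h, at 0.17 (edgeR adjusted p = 0.016), and had 0.80, 0.57 and 0.18 along glucose starvation (edgeR adjusted p of 5.88e-12, 4.34e-09 and 0.0114). Of 5 cargo receptors, which bind what is to be degraded, 4, 4 and 5 rose and none fell along amino acid starvation, and 3, 3 and 5 rose and 1, 1 and 0 fell along glucose starvation. Sqstm1, which encodes p62, had log2 fold changes of 2.47, 2.33 and 1.64 along amino acid starvation (edgeR adjusted p of 8.45e-25, 2.48e-24 and 4.41e-21) and 1.205, 0.87 and 1.78 along glucose starvation (edgeR adjusted p of 2.81e-17, 5.14e-14 and 1.63e-21). Calcoco1 had 0.51, 1.07 and 1.22 along amino acid starvation (edgeR adjusted p of 4.63e-07, 8.13e-14 and 2.76e-15) and 0.17, 0.62 and 1.18 along glucose starvation (edgeR adjusted p of 0.0584, 3.38e-08 and 1.33e-14). Nbr1 had log2 fold changes of 0.45, 1.08 and 1.37 along amino acid starvation (edgeR adjusted p of 5.22e-08, 2.36e-16 and 7.04e-19) and -0.14, -0.21 and 0.71 along glucose starvation (edgeR adjusted p of 0.0457, 0.00249 and 5.43e-12). The shares of all tested genes that rose and fell in these comparisons are those given above for the 10 genes.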

How the data were processed

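Total RNA of 14 libraries was sequenced, and groups and replicate numbers were taken from the sample labels. The authors deposited whole-number counts of reads per transcript, and the values show no normalisation. Per the submitters' processing notes, the build GRCm39, the aligner STAR and bedtools were used, and versions, annotation, counting rules and strand are not given in the sources used here. Of 67457 lines, 58 named no gene and held 0% of reads. The line with the most reads stood for each gene, since lines of 1 gene share sequence and were not treated as separate measurements.

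In R 4.3.3, edgeR 4.0.16 filtered genes with filterByExpr (17696 left), scaled with TMM and fitted a robust quasi-likelihood model with 1 mean per group to the 14 libraries (7 residual and a median of 20.9 prior degrees of freedom, biological coefficient of variation 5.78%). In each of 12 two-sided comparisons, p-values were Benjamini-Hochberg adjusted, with a threshold of 0.05. Intervals are 95% confidence intervals, and depth was 35270758 to 55349652 reads. Replicates correlated at 0.988 to 0.992 in log2 CPM and differed beyond sampling noise. The code was tested on simulated data.

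The 10 genes and the gene lists were chosen with earlier results of these data known. All 10 genes are named, with up to 3 genes per pathway list by smallest p and 3 of most similar profile for the 3 genes of widest range. Alternatives were RLE scaling, library totals, DESeq2 1.42.0, at least 1 read or 1 CPM in 4 libraries as the filter, a block for replicate number, a fit of only the groups compared, the sum of lines, the second line, each library left out and, chosen after seeing the data, the line of fewest reads.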

Additional observations from a re-analysis of the deposited data

Results flagged for a closer look

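The change between 3 and 12 h differed between amino acid and glucose starvation for 6 of the 10 genes when that difference was tested with edgeR. For Wipi2 the log2 change was -1.298 under amino acid starvation and 0.08 under glucose starvation, a difference of -1.38 (edgeR adjusted p = 2.34e-15). For Wipi1 it was -1.11 under amino acid starvation and -0.20 under glucose starvation, a difference of -0.91 (edgeR adjusted p = 8.9e-07). For Atg12 it was 0.37 under amino acid starvation and 1.195 under glucose starvation, a difference of -0.82 (edgeR adjusted p = 2.56e-07). For Atg2a it was -0.01 under amino acid starvation and 0.46 under glucose starvation, a difference of -0.46 (edgeR adjusted p = 0.000249). Atg3 had 0.23 under amino acid starvation and 0.61 under glucose starvation, a difference of -0.37 (edgeR adjusted p = 0.00247). With library totals in place of TMM, the differences of Atg2a (-0.22, edgeR adjusted p = 0.0739) and Atg3 (-0.13, edgeR adjusted p = 0.307) no longer passed the threshold. Atg9a had 1.22 under amino acid starvation and 0.65 under glucose starvation, a difference of 0.57 (edgeR adjusted p = 1.37e-05). Over all tested genes, 21.7% had a positive and 25.7% a negative difference that passed the same threshold.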

How the results depend on the processing

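The 120 log2 fold changes of the 10 genes were recomputed under each alternative. Direction and side of the threshold were kept by 120 with the second line, 119 with the replicate block, 118 with DESeq2, 118 with the filter of at least 1 read, 118 with 1 CPM in 4 libraries, 117 with RLE, 115 with only the groups compared, 115 with the fewest-read line, 114 with the sum of lines and 100 with library totals. Genes with a single line kept the same reads with the second or the fewest-read line. The second lines of Atg7, Atg16l1 and Atg9a held nearly the same reads as the lines used, as did the fewest-read lines of Atg16l1 and Atg9a. For these genes the settings could change little, so their counts say little of the choice of line. With library totals, Atg16l1 was at 0.23 for amino acid against glucose starvation at 12 h (-0.01 with TMM) and at 0.023 for 12 against 3 h of amino acid starvation (-0.29 with TMM), and Atg2a was at 0.30 for that change over time (-0.01 with TMM), where the median of all genes moved as well. With the fewest-read line, Atg7 was at 0.41 for 12 against 3 h of glucose starvation (-0.03 with the line used). The cause was not tested. Leaving out 1 library at a time kept 1631 of 1680 values. In most of these the library left out belonged to a group not compared, which can change a value little. The count therefore overstates how well calls withstood the loss of a compared library. Members called numbered 5 to 9 in these fits for 6 h of glucose starvation against the control (8 with all libraries) and 4 to 7 for 12 h (7 with all libraries), and 4 for 12 h with the sum of lines. Counts of all genes called stayed within 1.5 times. Same-numbered libraries did not deviate together over all genes (correlation -0.03 to 0.05 over 21 pairs). No pairing by number was thus seen, but a correlation over all genes cannot show a shared effect on few genes. As a replicate block the numbers moved 1 call, Atg16l1 for the difference of changes (-0.26, edgeR adjusted p = 0.0438, against 0.0568 without the block). Depth limits Atg10 most.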
